A study of Danio rerio with 13 samples.

Results

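The genes described here are 10 genes of the circadian clock in ZF4 cells, a fibroblast line derived from zebrafish embryos. They were found by symbol in the gene annotation of the deposited RNA-seq table: per1a, per1b, per2, per3, cry1a, cry1b, nr1d1, nr1d2a, bhlhe41 and arntl1a. The 10 symbols matched 11 gene models of 32677, because per2 is held by the model ENSDARG00000034503 and by a model of 393 bases, ENSDARG00000078099, called the short model below. All 11 models were among the 19622 genes with enough reads to be tested. MeDIP-seq, in which fragments of methylated DNA are captured with an antibody and sequenced, gave 160561 peaks, and 35 of them were assigned to these genes.

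Control cells were kept at 28°C, and cold-treated cells spent either 5 days (named 18°C /5d in the figures) or 30 days (18°C /30d) at 18°C, all in the same medium with 5% CO2. They were split every 3 days. RNA-seq was done on 3 libraries per condition, numbered 1 to 3 in the sample labels, and MeDIP-seq on 1 library per condition that pooled 3 cultures. The hour of harvest and the lighting of the cultures are not given in the sources used here, and neither is what a replicate number stands for.

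The circadian clock of vertebrate cells is a feedback loop of transcription. Heterodimers of Clock and Bmal, the protein of the arntl genes, switch on the period (per) and cryptochrome (cry) genes, whose products return to the nucleus and inhibit the heterodimer. In a second loop, the nuclear receptors of the nr1d family repress arntl transcription and those of the ror family activate it, while bhlhe41 encodes a further repressor of Clock and Bmal. Zebrafish cells in culture hold such a clock and sense light themselves, and per2 and cry1a are known in zebrafish as light-inducible genes. In a running clock, the level of most of these transcripts changes with the hour of the day.

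The libraries of replicate 3 stood apart from the rest. Their total counts were 21407769 to 22504969, against 37509447 to 44853311 in the other 6 libraries, and 1 gene, zgc:158463, took 7.25 to 7.77% of their counts, while the top gene took 0.652 to 1.42% in the others. Of the fibroblast markers, all 10 gene models found had a mean over the 9 libraries of at least 1 CPM (counts scaled to the size of the library after TMM normalisation), with sums of 4452 to 10487 CPM per library. Most of each sum came from the collagen genes col1a1a, col1a2 and col5a1. Low among these markers were vim, at 0.862 to 2.64 CPM, and dcn, with a mean of 0.419 at 28°C. Markers of other cell types were detected as well. The epithelial list, with cdh1 in every library, summed to 102 to 339 CPM per library. Its krt4 had 171 CPM in replicate 3 at 28°C and 0.126 to 8.31 in all other libraries. The muscle list, with myod1, summed to 33.2 to 90.3, and the pigment cell list, nearly all of it dct, to 15.9 to 71.3. Sums were 4.35 to 20.02 for the endothelial list, with fli1a, and 1.96 to 8.08 for the blood list, with ptprc and spi1. In these lists and the neural list, myog, neurod1, gfap, snap25a, epcam, mitfa, tyr, gata1a, hbae1 and cdh5 stayed under 1 CPM in every library. The neural list summed to 0.981 to 21.3, and its gene elavl3, a neuronal marker, differed between replicate numbers (adjusted p = 9.9e-05, edgeR's quasi-likelihood test). So did col5a1, pdgfrb and lum of the fibroblast list, and myod1, spi1 and fli1a (adjusted p = 0.0038 to 0.032, edgeR). Of all tested genes, 11.4% passed an adjusted p of 0.05 in this test. The part of these library differences in the results below was not tested, and counts were therefore also compared with replicate 3 left out.

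**Figure D1:**
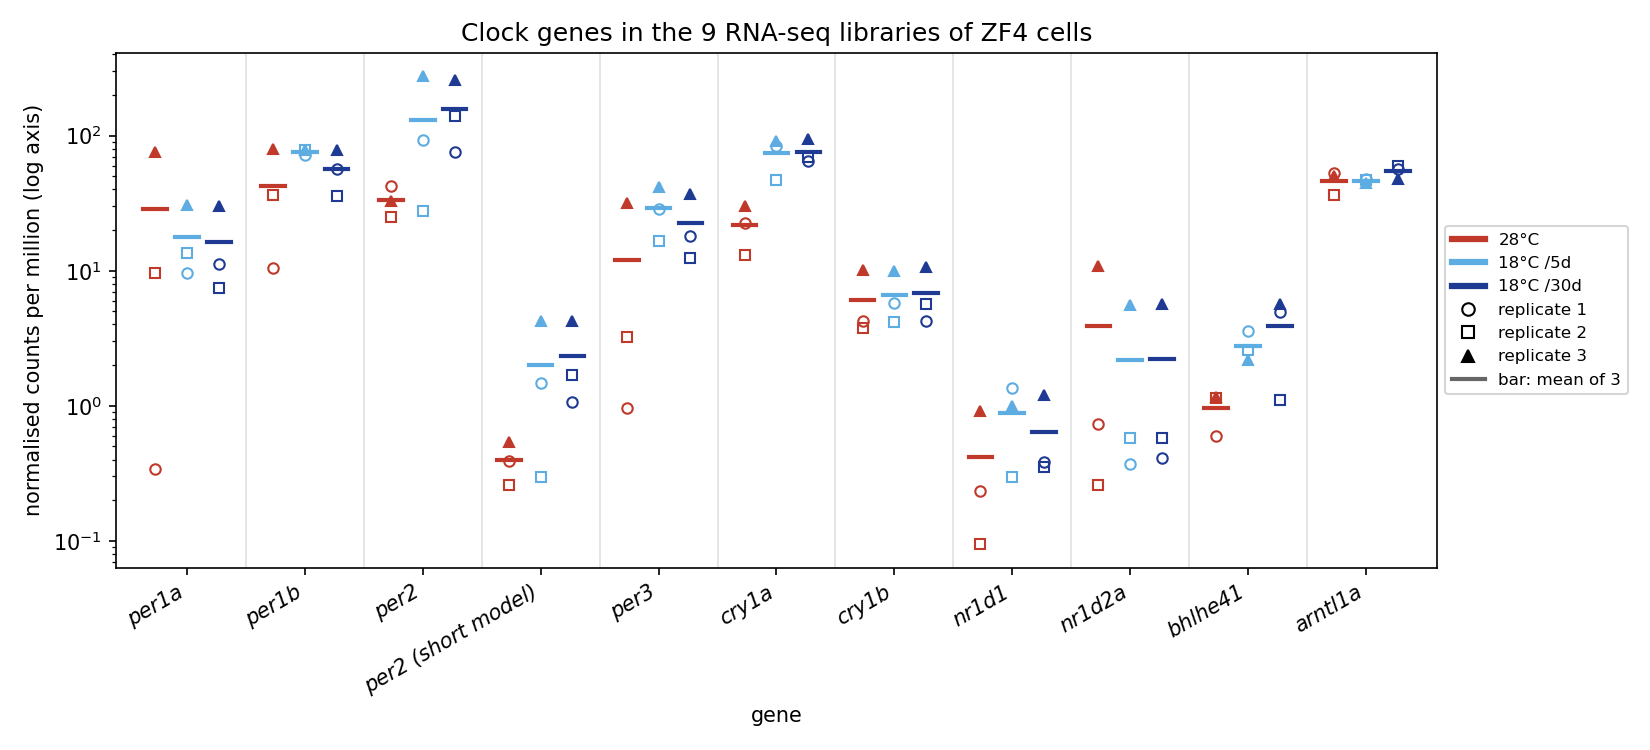
CPM (log axis) of the 11 clock gene models in each of the 9 RNA-seq libraries, with 1 symbol per replicate number, 1 colour per condition and a bar for the mean of 3 libraries. The values of per1a at 28°C span 0.338 to 76.3, whereas those of arntl1a lie between 36.4 and 59.4 in all 9 libraries, and cry1a is the gene whose 6 libraries from 18°C all lie above its 3 from 28°C.

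Among the 10 genes, cry1a was the one whose libraries separated by temperature at both times, with a mean of 21.9 ± 8.66 (SD, n = 3) CPM at 28°C, 74.1 ± 23.7 after 5 days and 76.1 ± 15.5 after 30 days at 18°C. The means of per2 were 33.5, 131.7 and 158.8 and those of bhlhe41 0.965, 2.78 and 3.92 in the same order. After 30 days, the highest bhlhe41 library was 5.16 times the lowest, and for per2 the highest was 10.0 times the lowest after 5 days. The control libraries of per1a, per3 and nr1d2a spanned 226, 33.0 and 41.5 times from lowest to highest, and those of arntl1a 1.45 times. In edgeR's quasi-likelihood test with Benjamini-Hochberg adjustment over all genes, 0 of the 11 models passed an adjusted p of 0.05 in any comparison. The share of all tested genes that passed was 0% for 5 days at 18°C against 28°C, 0.0612% for 30 days at 18°C against 28°C and 0% for 30 against 5 days at 18°C. DESeq2, which called 2.61%, 4.36% and 0.00761% of all genes in the same comparisons, called 1 model after 5 days (cry1a), 2 after 30 days (cry1a and bhlhe41) and 0 between the times in the cold. It gave no adjusted p for nr1d2a in either comparison with 28°C, and its shares are over the genes that received an adjusted p.

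At an unadjusted p under 0.05, 4 of the 11 models (cry1a, bhlhe41 and both of per2) passed at each time, where 11.3% of all tested genes did after 5 days and 13.7% after 30 days. Between 30 and 5 days of cold, 0 of 11 did, with 1.28% of all genes. The median log2 fold change of the 11 models was 1.13 after 5 days and 0.66 after 30 days, against -0.0077 and -0.011 over all tested genes. Both medians of the models were the values of nr1d1, which had 4 to 51 counts per library. At each time 9 of the 11 were above 0, against 9694 and 9679 of the 19622 tested genes. Leaving out 1 library turned the sign of per1a, nr1d2a, cry1b and arntl1a after 5 days. After 30 days it turned that of per1a, nr1d2a, cry1b, per1b and nr1d1. The groups did not overlap, with higher values in the cold, for 2 of 11 models after 5 days (cry1a and bhlhe41; 9.27% of all tested genes) and for 3 after 30 days (cry1a and both of per2; 10.3%). Both comparisons use the same 3 libraries from 28°C. Both models of per2 bear the same symbol, so they are not independent in these counts or in the later ones.

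Of the cryptochromes, which encode repressors of the Clock and Bmal heterodimer, cry1a (ENSDARG00000045768) had 22.4, 13.04 and 30.3 CPM in replicates 1, 2 and 3 at 28°C. It had 84.4, 47.0 and 91.0 after 5 days, and 65.0, 69.6 and 93.8 after 30 days. Every library from 18°C exceeded every library from 28°C, a pattern that 6.09% of all tested genes showed and that cry1a alone showed among the 11 models. The log2 fold change was 1.76 ± 0.37 (SE) after 5 days (n = 3 per group; adjusted p = 0.163, edgeR) and 1.80 ± 0.37 after 30 days (adjusted p = 0.102, edgeR). With the replicate number as a block, the log2 fold changes were 1.78 ± 0.24 (adjusted p = 0.0446, edgeR) and 1.87 ± 0.24 (adjusted p = 0.0252, edgeR). Both passed in this fit, as did 0.26% and 1.51% of all tested genes. The block takes the numbers to pair libraries, which rests on no stated design and is uncertain for numbers 1 and 2. Without the 3 libraries of replicate 3, the log2 fold changes of cry1a were 1.87 (adjusted p = 0.135, edgeR) and 1.92 (adjusted p = 0.0779, edgeR), and neither passed. The other 10 models passed in neither fit.

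Within replicate numbers, cry1a was higher after 5 days of cold than at 28°C by 1.91, 1.85 and 1.58 on the log2 scale, in the order of replicates 1 to 3. After 30 days the differences were 1.53, 2.42 and 1.63. All 6 differences lay above 1.5 for this gene, whereas those of per1a ran from -1.35 to 5.05. Between 30 and 5 days of cold, the log2 fold change of cry1a was 0.04 ± 0.36 (SE; adjusted p = 1.0, edgeR).

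The other cryptochrome, cry1b (ENSDARG00000011583), was at 4.26, 3.78 and 10.2 CPM at 28°C, at 5.76, 4.20 and 10.0 after 5 days, and at 4.21, 5.69 and 10.6 after 30 days. The groups overlapped, and the log2 fold changes against 28°C were 0.14 ± 0.52 (SE) and 0.17 ± 0.52. Replicate 3 was the highest library in each condition, at about 10 each time. Neither log2 fold change exceeded its SE.

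**Figure D2:**
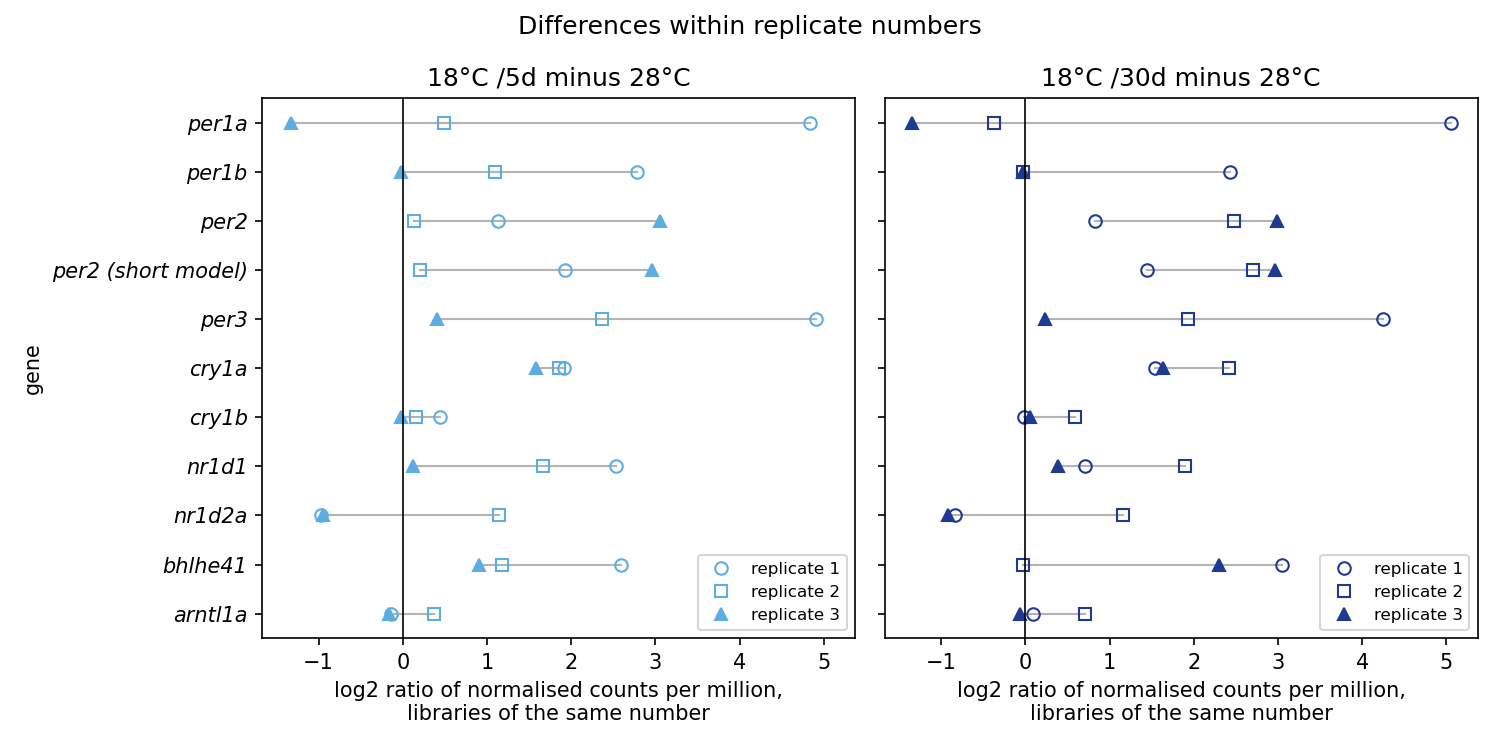
Log2 ratio of CPM between the library from 18°C and the library from 28°C of the same replicate number, for each clock gene model (left, 18°C /5d; right, 18°C /30d), with a grey line over the range of the 3 ratios. For cry1a the 3 ratios at 18°C /5d lie between 1.58 and 1.91, and for per1a they run from -1.33 to 4.84.

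Of the period genes, whose products form the inhibiting complex together with cryptochromes, per2 (ENSDARG00000034503) had 42.5, 25.1 and 33.0 CPM at 28°C. After 5 days it had 92.8, 27.5 and 275, and after 30 days 75.6, 140.1 and 261. Replicates 1 and 3 after 5 days lay far above the control libraries, but replicate 2, at 27.5, lay among them, and after 30 days all 3 lay above. The log2 fold change was 1.97 ± 0.75 (SE; adjusted p = 0.365, edgeR) and 2.24 ± 0.76 (adjusted p = 0.239, edgeR), neither past the threshold. Without the 5-day replicate 3, the former was 0.83. The short model of per2 had 0.260 to 0.541 CPM at 28°C, 0.298 to 4.22 after 5 days and 1.06 to 4.22 after 30 days. Its libraries followed the same order as the long model within each condition at 18°C, and how the counting split reads between both models is not given in the sources used here.

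For per1a (ENSDARG00000056885), the 3 control libraries had 0.338, 9.66 and 76.3 CPM, which rest on 13, 409 and 1833 counts. The highest was 226 times the lowest. After 5 days the values were 9.65, 13.6 and 30.4, and after 30 days 11.2, 7.48 and 29.9, ranges of 3.2 and 4.0 times. All 6 libraries from 18°C thus lay between the extremes of 28°C. The log2 fold changes were -0.68 ± 1.28 (SE) and -0.83 ± 1.28, and they turned to 1.83 and 1.69 without the library of replicate 3 at 28°C. With the replicate number as a block they were 0.37 ± 1.00 and 0.20 ± 1.03, so that no direction can be given for per1a.

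Its paralog per1b (ENSDARG00000012499) had 10.5, 36.5 and 80.1 CPM at 28°C, in the same order of libraries as per1a. After 5 days the values were 72.4, 77.8 and 78.6, which differ by a factor of 1.09, and after 30 days 56.7, 35.7 and 78.8. In replicate 3, per1b was nearly the same at all temperatures and times, between 78.6 and 80.1. The log2 fold changes were 0.85 ± 0.59 (SE) and 0.43 ± 0.59, and after 30 days the value was -0.030 without 28°C replicate 1.

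The values of per3 (ENSDARG00000010519) were 0.961, 3.24 and 31.7 CPM at 28°C, a range of 33.0 times. They were 28.8, 16.6 and 41.9 after 5 days and 18.2, 12.4 and 37.2 after 30 days. In replicate 1 the difference from 28°C was 4.91 on the log2 scale after 5 days and 4.24 after 30 days, while in replicate 3 it was 0.40 and 0.23. The log2 fold changes were 1.29 ± 1.03 (SE) and 0.92 ± 1.03. Leaving out 28°C replicate 3 raised them to 3.78 (adjusted p = 0.185, edgeR) and 3.42 (adjusted p = 0.129, edgeR), still short of the threshold. Leaving out 28°C replicate 1 lowered them to 0.74 and 0.37, and the 30-day value was 0.36 without the 30-day replicate 3.

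Of the nuclear receptors of the second loop, nr1d1 (ENSDARG00000033160) was near the detection limit, with 4 to 51 counts per library. It had 0.234, 0.0945 and 0.916 CPM at 28°C, 1.35, 0.298 and 0.998 after 5 days, and 0.381, 0.353 and 1.19 after 30 days. The groups overlapped, and the log2 fold changes were 1.13 ± 0.92 (SE) and 0.66 ± 0.92. With 1 library left out in turn, the 5-day value ran from 0.64 to 2.40 and the 30-day value from -0.12, without the 30-day replicate 3, to 1.92, without 28°C replicate 3. Within each replicate number nr1d1 was higher at 18°C, by 0.12 to 2.53 on the log2 scale after 5 days and by 0.38 to 1.90 after 30 days. The 0.12, in replicate 3, came from 22 counts in both libraries, so it rests on the scaling to library size alone.

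The related receptor gene nr1d2a (ENSDARG00000003820) separated the libraries by replicate number. It was at 0.727, 0.260 and 10.8 CPM at 28°C, at 0.370, 0.574 and 5.58 after 5 days, and at 0.408, 0.579 and 5.72 after 30 days. Replicate 3 had at least 5.58 in each condition, and no library of replicates 1 or 2 had more than 0.727. The log2 fold changes against 28°C were -0.86 ± 1.54 (SE) and -0.82 ± 1.54, and they were 2.10 and 2.15 without 28°C replicate 3.

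The repressor gene bhlhe41 (ENSDARG00000041691) had 0.597, 1.13 and 1.17 CPM at 28°C. It had 3.59, 2.57 and 2.18 after 5 days, where the groups did not overlap. After 30 days it had 4.92, 1.11 and 5.72, with replicate 2 at the level of 28°C. The log2 fold changes were 1.53 ± 0.59 (SE; adjusted p = 0.369, edgeR) and 2.02 ± 0.60 (adjusted p = 0.185, edgeR).

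In the activating arm, arntl1a (ENSDARG00000006791), which encodes a Bmal partner of Clock, was the steadiest of the 10 genes. It had 52.9, 36.4 and 49.9 CPM at 28°C, 47.9, 47.1 and 44.5 after 5 days, and 56.4, 59.4 and 47.9 after 30 days. The highest of the 9 libraries was 1.63 times the lowest. The log2 fold changes were 0.0028 ± 0.21 (SE) and 0.23 ± 0.21, and replicate 3 was not high for this gene.

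Levels can be compared between genes only per length, with the deposited RPKM values (reads scaled by gene length and library size). The order below depends on the lengths used, from 2982 bases for cry1b to 14931 for per2, and the library sizes were not TMM-scaled. At 28°C, arntl1a was highest with 10.0 ± 1.73 (SD, n = 3), followed by per1b with 6.59 ± 5.73 and cry1a with 2.69 ± 1.18. Then came per3 with 2.32 ± 3.35, per2 with 2.24 ± 0.441, per1a with 2.21 ± 3.21 and cry1b with 2.10 ± 1.36, whose means differed by less than their spread. The lowest were nr1d2a with 0.827 ± 1.28, bhlhe41 with 0.313 ± 0.125 and nr1d1 with 0.0770 ± 0.0810. Neighbours in this order, which leaves out the short per2 model, differed by less than the larger of their SDs, except bhlhe41 and nr1d1. After 5 days the order began with per1b (11.3 ± 0.755), arntl1a (10.0 ± 0.657), cry1a (8.96 ± 2.59) and per2 (8.71 ± 8.34), of which per1b and arntl1a differed by more than either SD. After 30 days it began with arntl1a (11.4 ± 0.341), per2 (10.8 ± 7.40), cry1a (9.20 ± 2.80) and per1b (8.53 ± 4.04), and neighbours among these did not differ beyond their spread.

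**Figure D3:**
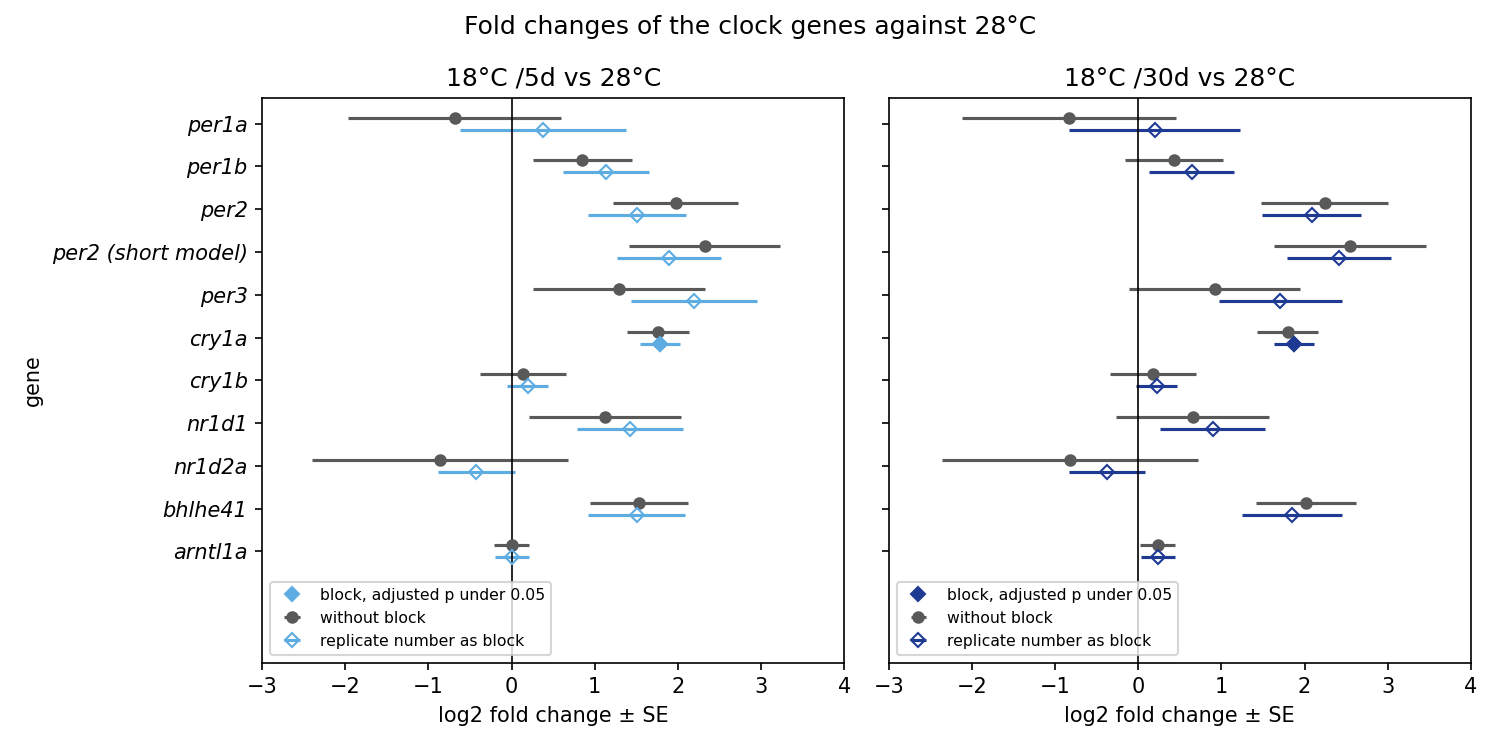
Log2 fold change ± SE of each clock gene model against 28°C from edgeR (left, 18°C /5d; right, 18°C /30d), without a block (grey circles) and with the replicate number as a block (diamonds, filled where the adjusted p is under 0.05). The filled diamonds are those of cry1a, at 1.78 and 1.87, while per1a changes sign between both fits.

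The replicate number itself was then tested, in a fit with condition and number, because the labels give it. Of the 11 models, 2 passed an adjusted p of 0.05, and 11.4% of all tested genes did. These were nr1d2a (adjusted p = 8.48e-04, edgeR) and cry1b (adjusted p = 0.0237, edgeR), both of them highest in replicate 3. With 1 library left out in turn, the count ranged from 1 to 4, and without replicate 3 it was 0. Replicate 3 lay above all 6 other libraries in 5 of 11 models, namely per1a, per1b, per3, cry1b and nr1d2a, and below them in 0, while 11.2% and 10.9% of all tested genes showed these patterns.

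Replicate 3 was the highest library of 9 models at 28°C, of 8 after 5 days and of 10 after 30 days, against 41.8%, 38.1% and 37.9% of all tested genes. At 28°C, replicate 1 was lowest and replicate 3 highest in 4 of 11 models (per1a, per1b, per3 and bhlhe41), with 23.5% of all genes. On the scale of CPM + 0.1, the highest control library was at least 10-fold above the lowest for per1a, per3 and nr1d2a, which held for 5.16% of all genes, and the same held for the short per2 model and nr1d2a after 5 days (3% of all genes) and for nr1d2a after 30 days (3.35%). The SD of log2 values was largest at 28°C in 8 of 11 models (72.7%), against 42.2% of all tested genes. The median SD of the 11 models, however, was 0.77 at 28°C, 0.67 after 5 days and 0.85 after 30 days. Over all tested genes it was 0.48, 0.39 and 0.46. Members of 1 pathway share their regulators and these libraries, so these shares and medians describe the 9 libraries and were not tested.

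Higher values at 18°C within all 3 replicate numbers were found after 5 days for 6 of 11 models (both of per2, per3, cry1a, nr1d1 and bhlhe41), against 22% of all tested genes. After 30 days this held for 5, the same without bhlhe41, against 22%, and 14.7% of all genes were higher within all 3 numbers at both times. In 0 of 11 models was 18°C lower within all 3 numbers, against 18.9% of all genes after 5 days and 18.6% after 30 days. The size of the difference varied with the number, and not in the same way for each gene. After 5 days the difference was 0.40 for per3 and 0.12 for nr1d1 in replicate 3, and 4.91 and 2.53 in replicate 1. The 0.12 of nr1d1 came from 22 counts in both libraries, so its place among the 6 models rests on the scaling to library size. For per2 it was larger in replicate 3 (3.06) than in replicate 1 (1.13), as for its short model (2.96 and 1.93). Whether the effect of cold differed between the numbers could not be tested with 1 library per condition and number.

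The wider clock was examined with 37 further tested models of lists that hold other activators, repressors, receptors of the second loop, output genes of the PAR bZIP and nfil3 families, kinases and ubiquitin ligase adaptors, light-inducible repair genes and opsins. Of these, 0 passed the adjusted threshold in either comparison with 28°C, with 6 and 7 of them at an unadjusted p under 0.05 (in the order 5 and 30 days), where 11.3% and 13.7% of all tested genes were. DESeq2, with 2.61% and 4.36% of all genes, called 1 and 0. The gene called was rorab, named here after its values were seen, which encodes a receptor of the ror family. It had 25.0, 16.04 and 55.3 CPM at 28°C, 9.78, 9.43 and 12.5 after 5 days, and 13.6, 13.02 and 11.2 after 30 days, each library from 18°C below each from 28°C. Of all tested genes, 8.35% after 5 days and 8.5% after 30 days were lower without overlap of the groups. The share that was so at both times was not computed. The log2 fold changes of rorab were -1.60 ± 0.41 (SE; adjusted p = 0.209, edgeR) and -1.35 ± 0.41 (adjusted p = 0.195, edgeR). Over the 37 models, the median log2 fold change was 0.11 and 0.29. With the replicate number as a block, 0 of 37 passed after 5 days and 1 after 30 days, a model of the repressor gene nfil3-2 (ENSDARG00000043237), at 1.24 ± 0.19 (SE; adjusted p = 0.0340, edgeR), where 1.51% of all tested genes passed. After 5 days the same model was at 1.29 ± 0.19 (SE; adjusted p = 0.0509, edgeR), just short of the threshold. This model had 6.80, 5.22 and 10.9 CPM at 28°C, 16.4, 14.2 and 24.1 after 5 days, and 14.3, 13.3 and 26.7 after 30 days. The more abundant model of the same gene (ENSDARG00000094965), at 44.6 to 100.3 CPM, did not pass, with 0.62 ± 0.22 under the block after 30 days (adjusted p = 0.174, edgeR). All 6 libraries from 18°C lay above all 3 from 28°C in 3 of the 37 models, against 6.09% of all tested genes.

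Between replicate numbers, 9 of these 37 models passed, against 11.4% of all tested genes. They included the output genes hlfa (adjusted p = 1.22e-04, edgeR) and nfil3-6 (adjusted p = 5.13e-04, edgeR), the receptor gene roraa (adjusted p = 0.00148, edgeR) and clocka (adjusted p = 0.0199, edgeR), named here after their values were seen. Replicate 3 lay above all others in 10 of 37, 5 of them among the 9 output genes, against 11.2% of all tested genes. The exception in direction was fbxl3b, a gene of the F-box family whose mammalian counterpart marks cryptochromes for degradation. It had 119, 71.8 and 7.45 CPM at 28°C, and replicate 3 lay below all other libraries.

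**Figure D4:**
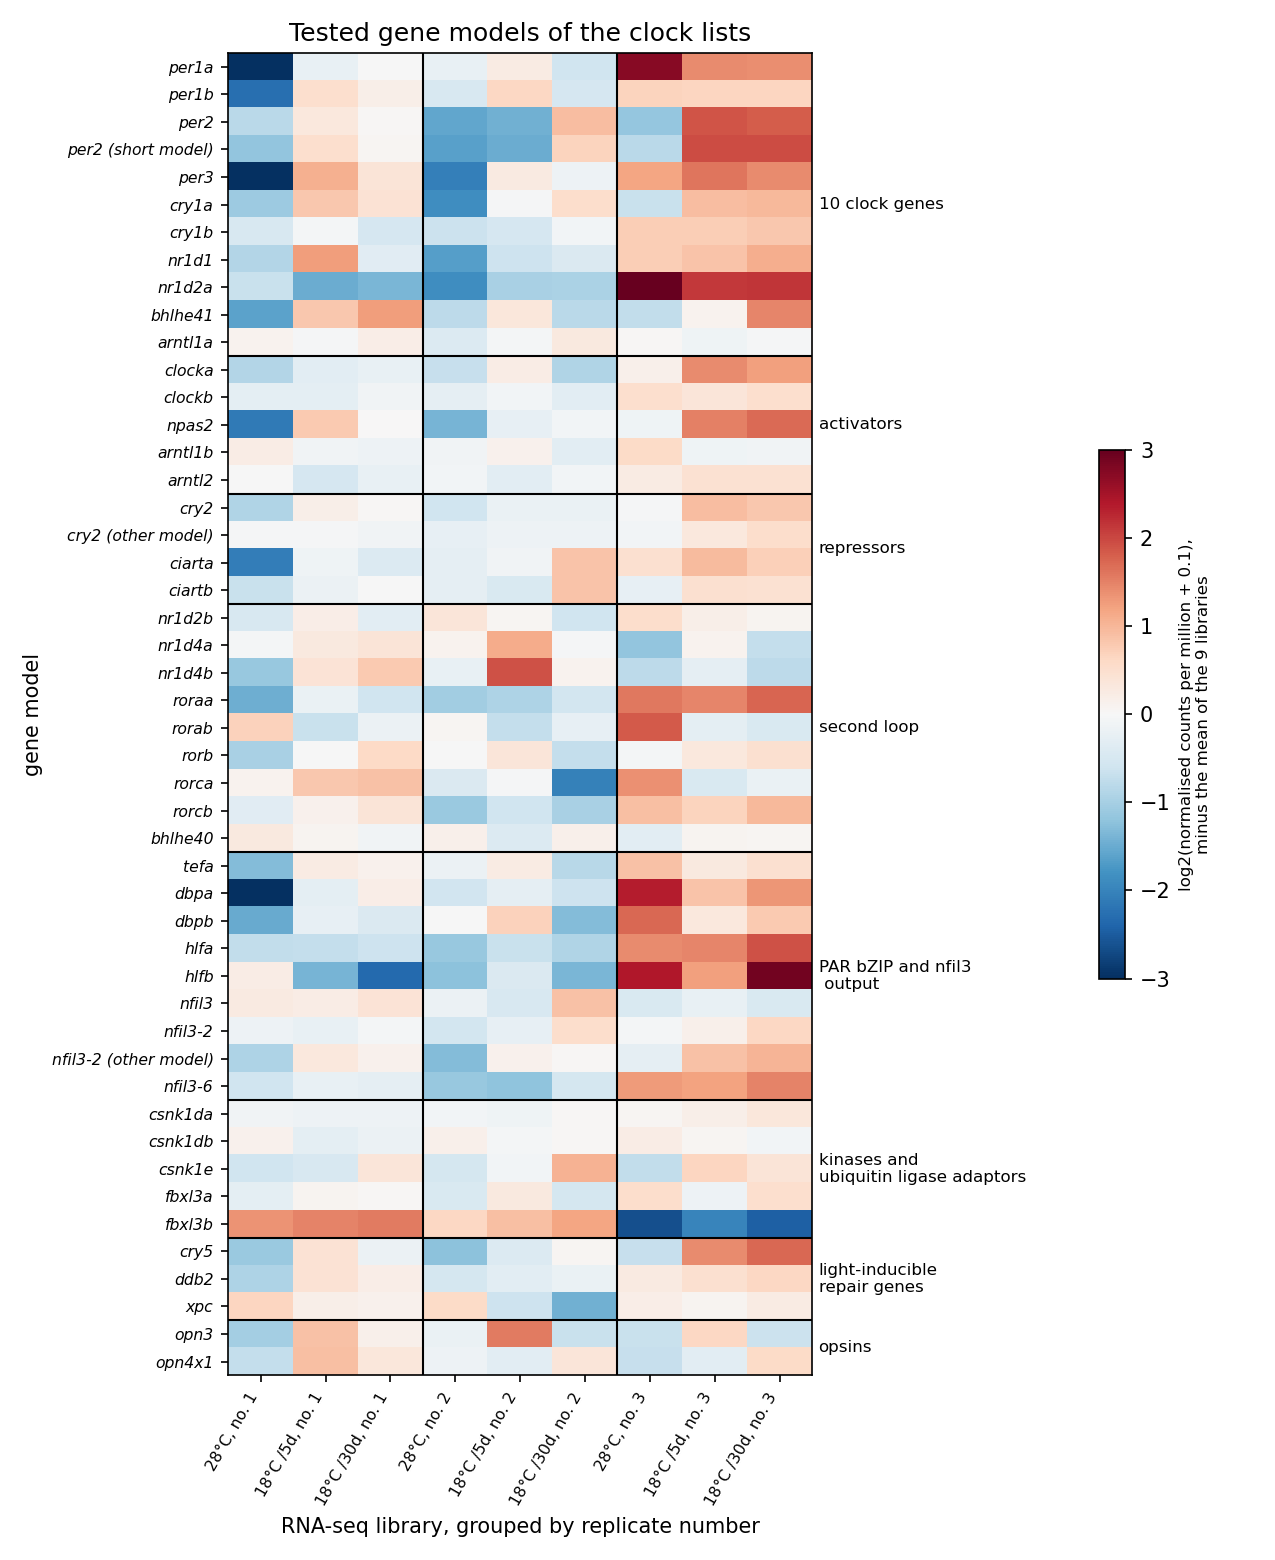
Log2(CPM + 0.1) of the 48 tested gene models of the clock lists, each minus its mean over the 9 RNA-seq libraries, in columns grouped by replicate number (no.) and in rows by list; colours saturate at 3 above or below the mean. The columns of replicate 3 are mostly red for per1a, per3, nr1d2a and the output genes dbpa, hlfa and hlfb, and fbxl3b is blue there.

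The genes most like a clock gene over the 9 libraries were sought among 16006 genes for the 3 members with the widest range, by the root-mean-square difference of centred log2 values. Nearest to per1a was dbpa, an output gene of the clock, at 0.657, followed by 2 unnamed or predicted genes at 0.713 and 0.724 and by zbtb16a at 0.909. The values of dbpa at 28°C were 0.104, 0.992 and 8.16 CPM, lowest in replicate 1 and highest in replicate 3 like those of per1a. Nearest to per3 were matn3b at 0.628 and lzts2b at 0.673. Nearest to nr1d2a were dgcr2 at 0.392, slc23a2 at 0.425, nfat5 at 0.472 and ube2j2 at 0.491.

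DNA methylation was compared with 1 pooled library per condition, so that no replicate check was possible and each test compares libraries. Reads on all peaks numbered 2952954 at 28°C, 2465050 after 5 days and 2406158 after 30 days. The reads per peak were low for the clock genes, from 0 to 60, and 18 of the 35 peaks had reads in all 3 libraries. The smallest count above 0 over all peaks was 3 reads at 28°C, 2 after 5 days and 3 after 30 days. A peak listed at 0 may therefore have held some reads, and how many is not known. The floor of 3 reads was an RPM (reads scaled to all reads on peaks of the library) of 1.02, 1.22 and 1.25 in the same order, for counting error only. Coordinates are those of the Zv9/danRer7 build.

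Most peaks lay in gene bodies. Of the 35, 14 belonged to per3, 7 to per2, 3 each to nr1d1 and nr1d2a, 2 each to per1a, cry1b and arntl1a, and 1 each to per1b and bhlhe41. None was assigned to cry1a. Exons held 17 (48.6%; 95% Wilson interval 33.0 to 64.4%), against 12.5% of all peaks, introns 14, promoters 3 and the downstream region 1. The interval treats the peaks as independent, although 14 belonged to per3 and 7 to per2. Peaks of genes cannot be intergenic, where 37.7% of all peaks lay, so the 12.5% understates the exon share among peaks with a gene. None of the 35 lay in a CpG island, and 6.36% of all peaks did.

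**Figure D5:**
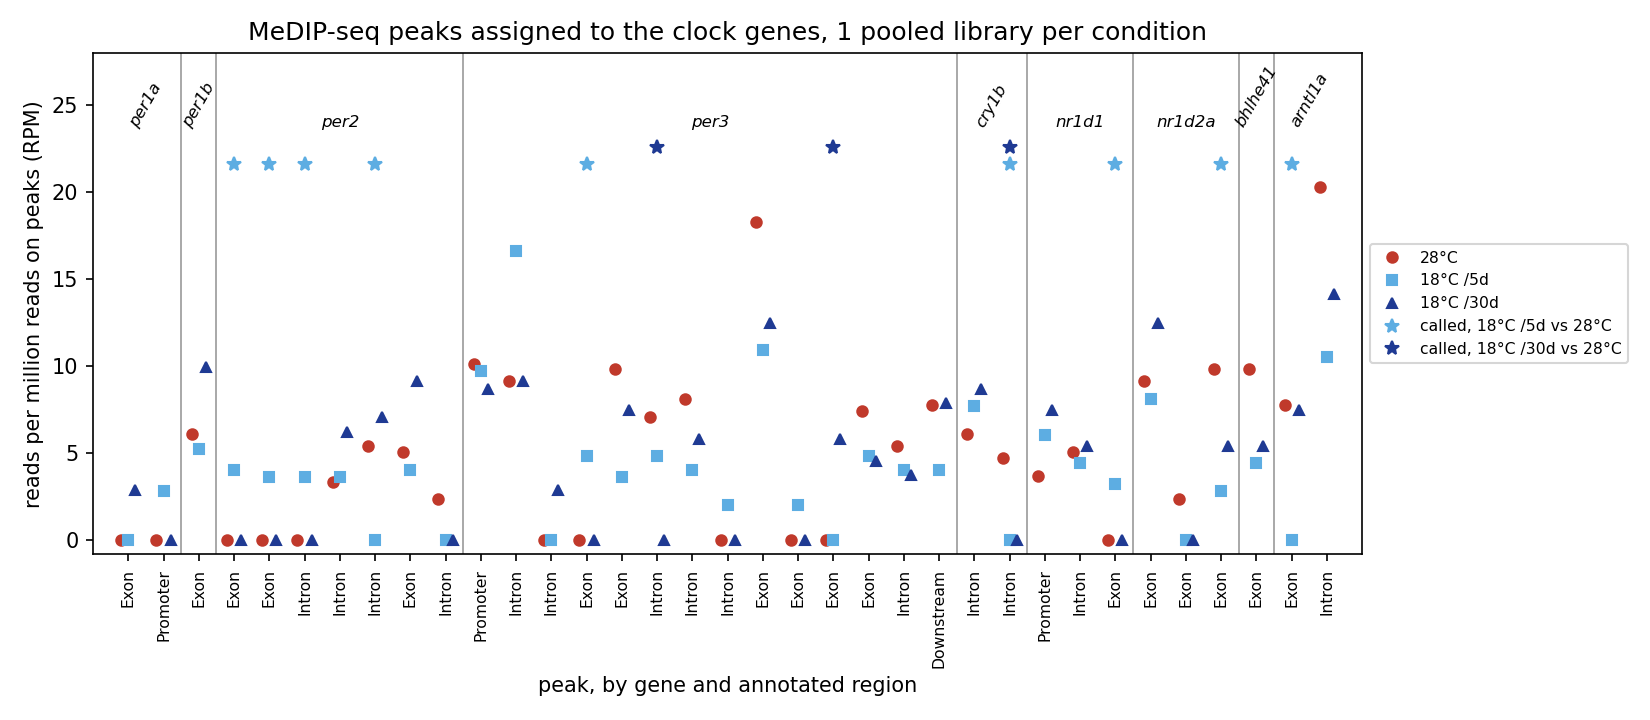
RPM of the 35 MeDIP-seq peaks assigned to clock genes, by gene and annotated region, with 1 symbol for each of the 3 pooled libraries; stars mark peaks called at 18°C /5d (light) or 18°C /30d (dark) against 28°C. Most stars stand over peaks with a library listed at 0, and the peak with the most reads, in an intron of arntl1a, was at an RPM of 20.3 at 28°C and 14.1 at 18°C /30d without a call.

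A peak was called where the FDR did not exceed 0.01 and the libraries differed at least 2-fold in RPM + 1. By this rule 9 of 35 peaks differed from 28°C after 5 days and 3 did after 30 days. Over all peaks 23.7% and 20.2% were called. The share among clock peaks was close to this background after 5 days and below it after 30 days, a difference that was not tested. Of the 9, 5 were higher (3 of per2, 1 each of nr1d1 and per3; 11.3% of all peaks) and 4 lower (per2, nr1d2a, cry1b and arntl1a; 12.5%). By 30 days, a peak in an exon of per3 was higher (10.9% of all peaks) and peaks in introns of per3 and cry1b were lower (9.25%). Each of these 3 calls involved a library listed at 0.

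The peak in an intron of cry1b, chr18:14713697-14713979, was called lower at both times, with 14 reads at 28°C and 0 in both libraries from 18°C. The peak in an exon of nr1d2a, chr16:53636297-53637013, had 29, 7 and 13 reads, in the order 28°C, 5 days and 30 days. It was the called peak that had reads in both libraries compared, with a ratio of 0.355 and an FDR of 0.00860 after 5 days. The peak in an exon of arntl1a, chr25:18397692-18399080, had 23, 0 and 18 reads, and it was the call that remained, at a ratio of 0.206, when zeros were set to the smallest count above 0 in their library. With this replacement 1 and 0 of the 35 peaks were called. The reads behind a listed 0 are not known, so this result depends on the replacement chosen. The peak of nr1d2a holds no 0 and kept its ratio of 0.355, but it lost its call, since the FDR is adjusted over all peaks.

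The 3 peaks of per2 called higher were close to each other in read number. The peaks in exons at chr2:48424615-48425302 and chr2:48437410-48438311 and in an intron at chr2:48439274-48439620 had 10, 9 and 9 reads after 5 days and 0 in both other libraries. A peak in an intron of the same gene, chr2:48444500-48445023, went the other way, with 16 reads at 28°C, 0 after 5 days and 17 after 30 days. No common direction of methylation was therefore seen over the gene body of per2.

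The promoter peaks were not called. That of nr1d1, chr3:23776992-23778313, had 11, 15 and 18 reads (ratios of 1.5 and 1.79). That of per3, chr11:41430731-41432847, had 30, 24 and 21 reads (ratios of 0.962 and 0.872), and that of per1a, chr10:23028230-23028741, had 7 reads after 5 days and 0 in the other libraries. For the 18 peaks that held reads in each library, the median log2 ratio was -0.30 after 5 days, with 14 of 18 lower, while over all such peaks it was -0.0020 with 50.3% lower. After 30 days it was -0.10, with 10 of 18 lower, against 0.06 and 43.8%. Of these 18 peaks, 8 belonged to per3, so they are not independent.

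Methylation and transcript levels can be set side by side only by condition. For cry1a, the gene with the clearest difference in transcripts, no peak was assigned. For bhlhe41, the peak in its exon at chr18:15786434-15787875 had 29, 11 and 13 reads (ratios of 0.505 and 0.592, neither called), with mean CPM of 0.965, 2.78 and 3.92 in the same order of conditions. Behind the 3.92 lies a replicate 2 at 1.11. For per1b, the peak in its exon at chr7:52296250-52297013 had 18, 13 and 24 reads (not called), and mean CPM were 42.4, 76.3 and 57.1. The called peak in an exon of arntl1a had 23, 0 and 18 reads, with mean CPM of 46.4, 46.5 and 54.6. The called peak in an intron of cry1b had 14, 0 and 0 reads, with mean CPM of 6.06, 6.66 and 6.83. Peaks of per2 were called in both directions after 5 days, and its mean CPM were 33.5, 131.7 and 158.8. With 3 conditions and 1 methylation library each, no relation between both measures was tested.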

How the data were processed

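MeDIP-seq reads had been quality-filtered (FASTX-Toolkit) and mapped to the Zv9/danRer7 build (Bowtie2) before peaks were found by MACS and joined across libraries with Bedtools. Of these, the authors deposited read counts per peak and RPM, which is scaled to the reads on peaks. The RNA-seq table deposited by the authors holds counts and RPKM for each Ensembl gene. Library kit, strand, aligner and counter are not given in the sources used here, so overlapping genes on opposite strands may share counts. The authors' own comparisons (ratios, p-values) and 9 columns of TPM were not used.

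RNA counts were tested with edgeR 4.0.16 (TMM, filterByExpr, 9 libraries in 1 fit, Benjamini-Hochberg adjustment), and CPM values were computed with TMM-scaled library sizes. A pseudocount of 0.1 was used for spreads and likeness. Peaks were tested with Fisher's exact test (scipy 1.17.1). Both tests were tested on simulated data. Nothing says whether the 3 RNA-seq libraries of a condition came from separate cultures, so p-values measure the spread between these libraries, which may be technical.

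Whether replicate numbers pair the libraries was checked on deviations from condition means: the correlations were 0.266 to 0.672 in the 9 pairs of equal number and -0.699 to 0.513 otherwise. Numbers 1 and 2 were not clearly told apart. Replicate 1 at 28°C correlated at 0.513 with the 30-day replicate 2 and at 0.266 with the 30-day replicate 1. The 5-day replicate 2 correlated at 0.409 with the 30-day replicate 1 and at 0.273 with the 30-day replicate 2. The numbers were still taken to pair libraries for the block, which rests on the counts and not on a stated design, and is uncertain for numbers 1 and 2. The alternatives tried were upper-quartile scaling, DESeq2 1.42.0, no filter, the block, only the 6 libraries compared and leaving out each library; for peaks, a pseudocount of 0.1, zeros replaced, an FDR of at most 0.001 with 4-fold, and peaks with reads in all 3 libraries. Replicates 1 and 2 only was added after seeing the data. The genes, lists and tests were chosen with earlier results of these data known. The text names the 10 genes, list genes called or stated as chosen later, and the nearest named genes of 3 members with the widest range. Symbols of the lists were matched through the table and RefSeq (52 of 58 genes, 55 models, 48 tested); clocka, hlfa, dbpa, fbxl3b, nfil3-2 and nfil3-6 are clock, HLF1, DBP1, wu:fd52d09, e4bp4-2 and E4BP4-6 in the table. Sequences were not used here.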

Additional observations from a re-analysis of the deposited data

How the results depend on the processing

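With the replicate number as a block, 1 of the 11 models passed at 18°C /5d and 1 at 18°C /30d (cry1a both times), and 51 and 297 of all genes passed in place of 0 and 12; the block changed no other call and turned per1a to 0.37 and 0.20 on the log2 scale. DESeq2 called 1 at 18°C /5d (cry1a, adjusted p = 0.00431) and 2 at 18°C /30d (cry1a, adjusted p = 0.00197, and bhlhe41, adjusted p = 0.0295), with 552 and 899 genes in all, and 4 between replicate numbers (3975 genes in all, against 2244 with edgeR; 878 to 2179 without 1 library). With replicates 1 and 2 only, 0 passed between numbers, and per1a turned to 1.19 (18°C /5d) and 0.89 (18°C /30d), nr1d2a to 0.013 at 18°C /30d, and bhlhe41 to -0.032 between 18°C /30d and 18°C /5d. Upper-quartile scaling, no filter and only the 6 libraries compared called 0 of 11 in each comparison of conditions, as did each fit without 1 library. Over all genes after 30 days, the 12 genes called became 2 without a filter, 0 with only the 6 libraries compared, 0 to 2 without 1 library and 54 with replicates 1 and 2 only.

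Of 35 peaks, 1 (18°C /5d) and 0 (18°C /30d) were called with zeros replaced, 0 and 0 among peaks with reads in all 3 libraries, and 3 and 2 at the stricter threshold.

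With 1 library left out in turn, where a group of 2 remained, the count between replicate numbers was 1 to 4. Log2 fold changes that changed sign ranged, at 18°C /5d, from -1.29 to 1.83 for per1a, -3.02 to 2.10 for nr1d2a, -0.28 to 0.72 for cry1b and -0.14 to 0.11 for arntl1a. At 18°C /30d they ranged from -1.62 to 1.69 for per1a, -2.96 to 2.15 for nr1d2a, -0.030 to 1.27 for per1b, -0.29 to 0.76 for cry1b and -0.12 to 1.92 for nr1d1. Between 18°C /30d and 18°C /5d they ranged from -0.94 to 0.46 for per1a, -0.29 to 1.40 for per2, -0.52 to 1.38 for its short model, -0.20 to 0.22 for cry1a, -0.42 to 0.45 for cry1b and -2.10 to 2.19 for nr1d2a. Without changing sign, per3 ranged from 0.74 to 3.78 after 5 days and from 0.36 to 3.42 after 30 days. For cry1a, the log2 fold change stayed between 1.49 and 2.06 at 18°C /5d and between 1.53 and 2.10 at 18°C /30d. The causes of these differences were not tested. At 4 to 51 counts per library for nr1d1 and 0 to 60 reads per peak, small changes cannot be seen.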
